A study of Mus musculus with 4 samples.

Results

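Natural killer (NK) cells of mouse ascites were examined by scRNA-seq as the cells that carried NK receptor transcripts and few transcripts of chosen marker genes of T cells, B cells, macrophages and tumour cells. A cell entered the NK gate with at least 2 unique molecular identifiers (UMIs, each standing for 1 captured transcript) of Ncr1, Klrb1c and Klre1 together. It also had to hold at most 1 UMI of Cd3d, Cd3e and Cd3g, at most 2 of Cd79a and Cd79b, at most 2 of Lyz2 and at most 2 of the keratins Krt7, Krt8, Krt18 and Krt19. At least 200 genes and at most 33% mitochondrial UMIs were required. The gate held 636 of the 25325 cells that passed these quality limits in the BTYNB and combination libraries, 620 from BTYNB and 16 from combination. All 4 libraries of the study together held 46342 cells. The 3 gate genes, the 3 Cd3 genes and the markers of other lineages chose the cells, so their levels in the gate are a description and not a finding.

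Female C57BL/6 mice carried ID8-Trp53-/- cells in the peritoneal cavity, an ovarian surface epithelial line with a Trp53 knockout, and all groups shared this tumour. The cells engrafted for 7 days before dosing 2 times a week, which ended when ascites reached about 3 mL. Control mice were given DMSO and an IgG control antibody (IgG2a), the BTYNB group BTYNB and the IgG control antibody, the anti-PD-1 group DMSO and the PD-1 blocking antibody RMP1-14, and the combination group BTYNB and RMP1-14. BTYNB is a small molecule inhibitor of the RNA-binding protein IGF2BP1. The labels give 50 mg/kg BTYNB and 100 ng of antibody per dose, and the study's methods state other amounts. Animals of a treatment were pooled into 1 library, so nothing is known of the spread between animals, no test was possible and the 95% intervals given here cover counting error only. Cells had been freed of erythrocytes, filtered and cryopreserved, and dead cells had been removed where applicable.

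NK cells are innate lymphocytes that kill stressed, infected or transformed cells without a rearranged antigen receptor. They read a balance of inhibitory receptors, many of them specific for MHC class I, and of activating receptors that signal through adaptors such as DAP12 (Tyrobp) and FcRγ (Fcer1g). Conventional NK cells depend on the transcription factor Eomes and circulate, whereas type 1 innate lymphoid cells (ILC1) share receptors and Tbx21 with them but usually lack Eomes and stay in tissue. In mice, NK cells mature from a Kit- and Tcf7-expressing stage with high cytokine responsiveness to a Cd11b (Itgam)-expressing stage with high granzyme and perforin content.

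NK-gated cells made up 3.39% of the quality-passing BTYNB cells (620 of 18283, 95% interval 3.13 to 3.66%) and 0.227% of combination cells (16 of 7042, 0.130 to 0.369%). The control library held 4 such cells (0.0511%) and the anti-PD-1 library 2 (0.0166%), too few to describe by gene. The BTYNB matrix held small cells that the other matrices lacked. Its smallest deposited cell had 869 UMIs, whereas the anti-PD-1 and control matrices began at 3533 and 4438 and that of combination higher still, with its smallest member at 5150. A depth floor was therefore set at the smallest deposited combination cell. Among cells at or above it, a range that all 4 libraries covered, NK-gated cells were 1.39% in BTYNB (77 of 5521, 1.10 to 1.74%) and 0.227% in combination. The same floor gave 0.0543% in control (4 of 7367) and 0.0108% in anti-PD-1 (1 of 9256). The ratio of BTYNB to combination was 6.14 above this floor. Members above it had a median of 7360 UMIs in BTYNB and 7670.5 in combination, and the ratio compares 2 pooled libraries. The ratio was 3.91 when the 5% of members with most UMIs were left out of each library. That rule kept 46 of the 77 BTYNB and 15 of the 16 combination members above the floor, so it lowered the ratio by construction. Fewer NK cells and NK cells with less RNA per cell cannot be told apart by such a gate, and shares of a suspension depend on all other cells in it. Cell barcodes were shared by 0 to 4 cells per pair of libraries, and by no NK-gated cell.

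The median NK-gated cell had 2810 UMIs (range 961 to 14393) and 1421.5 genes in BTYNB, and 7670.5 UMIs (5150 to 11767) in combination. The BTYNB members together held 2052283 UMIs, those of combination 119992. Levels are given as CPM, the summed UMIs of a gene scaled to a total of 1000000 UMIs for the cells compared, and are compared between cells for a gene, not between genes. Shares of cells with a UMI are also given after thinning each cell to 1000 UMIs, which kept 615 of the 620 BTYNB members.

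Genes that the gate had not used were checked first. Eomes, which chose no cell, had 1068 UMIs in the BTYNB members, 520.4 CPM (489.7 to 552.6), and a UMI in 424 of the 620 cells (68.4%). CD8 T-gated cells of the same library (997 cells with at least 2 Cd3 UMIs, a Cd8a or Cd8b1 UMI, and none of Cd4 or of the gate genes; median 2149 UMIs) had 70.4 CPM of it. After thinning, Eomes was seen in 37.7% of NK-gated, 5.77% of CD8 T-gated and 0 of 2506 tumour-gated cells (keratin-positive without Ptprc, median 19374 UMIs before thinning). The latter allows a share of up to 0.1197%, although thinning took a larger part of the UMIs of these larger cells. The edge of the gate was gradual. Cells with all other limits met had Eomes at 7.45, 161, 506 and 601 CPM when they carried 0, 1, 2 and 3 gate UMIs (5010, 119, 111 and 85 cells), and the share of them with an Eomes UMI went from 1.497% through 26.9 and 61.3 to 61.2%. Klra8, which encodes the Ly49H receptor, went from 8.62 through 351 and 1281 to 1331 CPM over the same steps. The 119 cells just outside the gate therefore held fewer NK transcripts than the 111 just inside, but more than cells without any gate UMI. All 3 gate genes were seen in 228 members (36.8%), 2 of them in 278 (44.8%) and 1 in 114 (18.4%).

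Transcripts of other lineages were present in the gate. The 12 T cell markers summed to 607 CPM in the BTYNB members against 5836 CPM in CD8 T-gated cells, a contrast that the gate's limit on Cd3 helped to set. Trbc1 gave 659 of these UMIs and was seen in 354 members, and Trbc2 gave 377 and was seen in 182. Trac, the constant gene of the αβ T cell receptor, was seen in 9.03% of members, and Trdc, the δ constant gene, in 26.1% (117 CPM) against 2585 CPM in 96 γδ T-gated cells. Il13, Il5 and Il17rb of ILC2 and Il22, Il17a and Ncam1 of the ILC3 list had no UMI. Gata3 and Klrg1 of the ILC2 list were seen in 134 and 106 members, and Kit of the ILC3 list in 125. The ILC2 list summed to 185 CPM and the ILC3 list to 100 CPM, against 53.0 and 17.8 CPM in CD8 T-gated cells. B cell and tumour cell markers summed to 180 and 237 CPM, against 202 and 350 CPM in CD8 T-gated cells. The 5 erythroid genes summed to 343 CPM, and 92.3% of the 700 haemoglobin UMIs lay in 3 cells. For the 8 dendritic cell markers the sums were 1428 CPM over all BTYNB members, 3461 CPM in those at the depth floor and 5167 CPM in combination. Much of this lay in 18 BTYNB and 5 combination members with at least 10 UMIs of the MHC class II genes H2-Aa, H2-Ab1 and Cd74. These 18 members were larger (median 6644 against 2759.5 UMIs in the other 602) and held Cd209a at 363 against 2.58 CPM and Fscn1 at 467 against 3.61 CPM, both dendritic cell genes. Their NK transcripts were lower, with Eomes at 182 against 541 CPM and Gzma at 536 against 2020.1 CPM. No doublet caller was run here, and the part that cell pairs had in these members was not tested. They were left out of the splits by Ly49, Gzmb, chemokine and division genes, and the library contrast is given with and without them.

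NK-gated cells were first set against the CD8 T-gated cells of the library, to show which genes of the NK programme were present in ascites. Effector transcripts were seen in few of the 997 CD8 T-gated cells, Gzma in 27, Gzmb in 46 and Prf1 in 64. Their gate also left out any cell with a UMI of an NK gate gene. The ratios of effector and receptor genes are against such cells. Over 10372 genes with at least 20 UMIs in both groups together, 761 (7.34%) were more than 2-fold higher in NK-gated cells and 668 (6.44%) more than 2-fold lower, with a median log2 ratio of 0.06. All 12 genes of the NK-defining list were more than 2-fold higher (median 5.76), 3 of them by construction. Of the 19 measured activating receptors and adaptors, 16 were higher and 0 lower (median 3.78), with the gate genes Ncr1 and Klrb1c higher by construction. Of 19 inhibitory receptors, 13 were higher and 4 lower (median 2.15). The plot of log2 ratios against CD8 T-gated cells shows the receptors, effectors and transcription factors side by side.

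**Figure D1:**
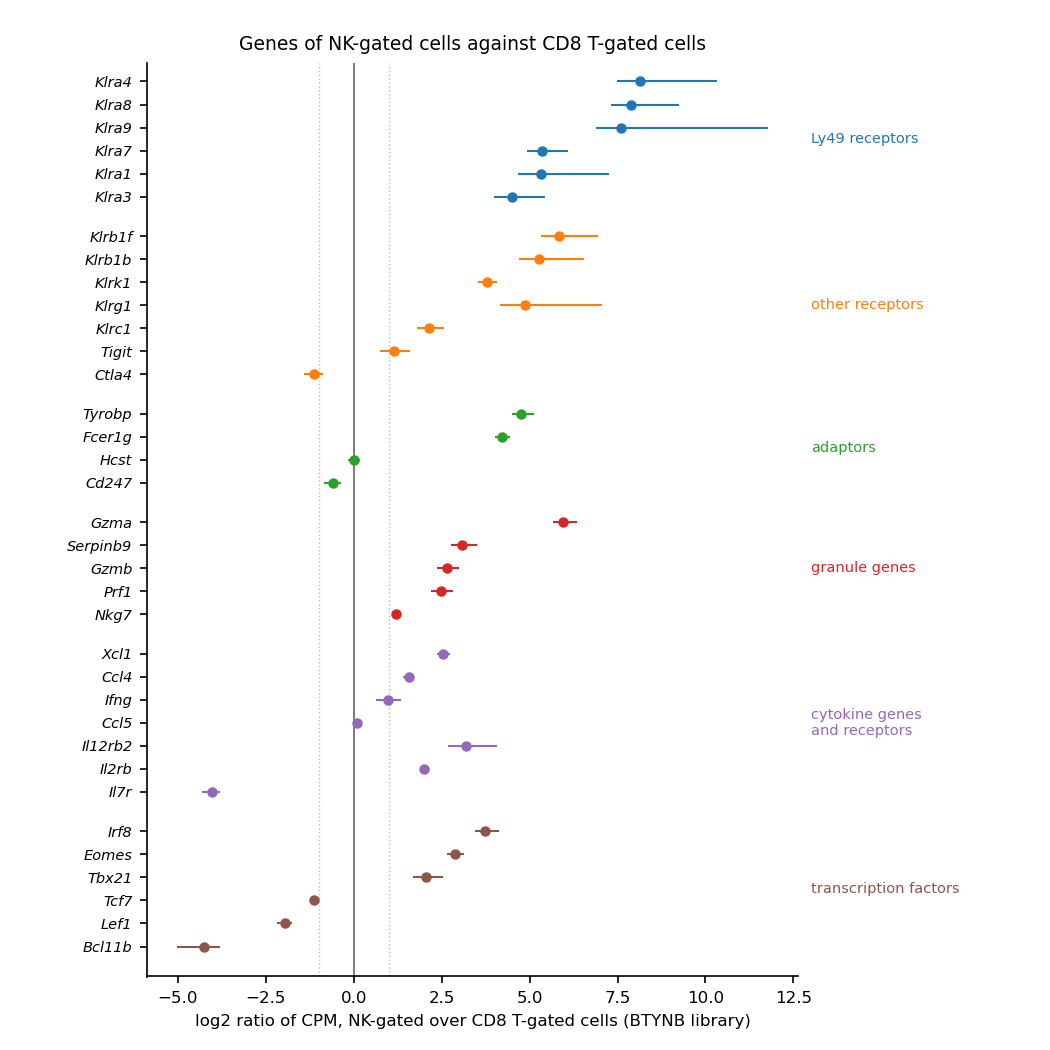
Log2 ratio of CPM in 620 NK-gated over 997 CD8 T-gated cells of the BTYNB library, for genes grouped by role. Points are ratios, bars are 95% counting intervals and dotted lines mark 2-fold; Ly49 receptors and Gzma lie far to the right, Ccl5 and Hcst near 0, and Il7r and Bcl11b far to the left.

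Genes of Ly49 receptors had the 3 highest ratios outside the gate. These lectin-like receptors, encoded by the Klra genes, bind MHC class I or viral ligands, and their genes are so alike that reads can be split or misplaced between them. The activating receptor gene Klra8 (Ly49H) had 1216 CPM in NK-gated cells and a log2 ratio of 7.89 (7.32 to 9.26). Klra4 (Ly49D), also activating, had 867 CPM and a ratio of 8.14 (7.49 to 10.34). The inhibitory receptor genes Klra9 (Ly49I), Klra7 (Ly49G), Klra1 (Ly49A) and Klra3 (Ly49C) had ratios of 7.60, 5.35, 5.32 and 4.49. All of these were low in CD8 T-gated cells, where thinning left a Klra8 UMI in 0.304% of cells against 45.4% of NK-gated cells. Before thinning, Klra8 and Klra4 were each seen in 326 members (52.6%), Klra7 in 295 (47.6%), Klra9 in 206 (33.2%), Klra3 in 137 (22.1%), Klra1 in 112 (18.1%), Klra10 in 33 (5.32%) and Klra6 in 32 (5.16%).

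Single cells carried different sets of these genes. Of the 8 Ly49 genes counted, 0 were seen in 77 members (12.4%), 1 in 101 (16.3%), 2 in 136 (21.9%), 3 in 177 (28.5%), 4 in 87 (14.0%), 5 in 37 (5.97%) and 6 in 5 (0.806%). Thinning moved this distribution down, with 0 genes in 132 of 615 cells (21.5%) and 3 in 132 (21.5%), so the number per cell depended on depth. The 2 activating genes occurred together. Klra4 was seen in 68.4% of the Klra8-bearing members and in 35.03% of the others, and thinning gave 59.1% against 27.7%. Since reads of these genes can be split between them, this co-detection is uncertain. The bar charts of Ly49 genes show both the share of cells per gene and the number of genes per cell.

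**Figure D2:**
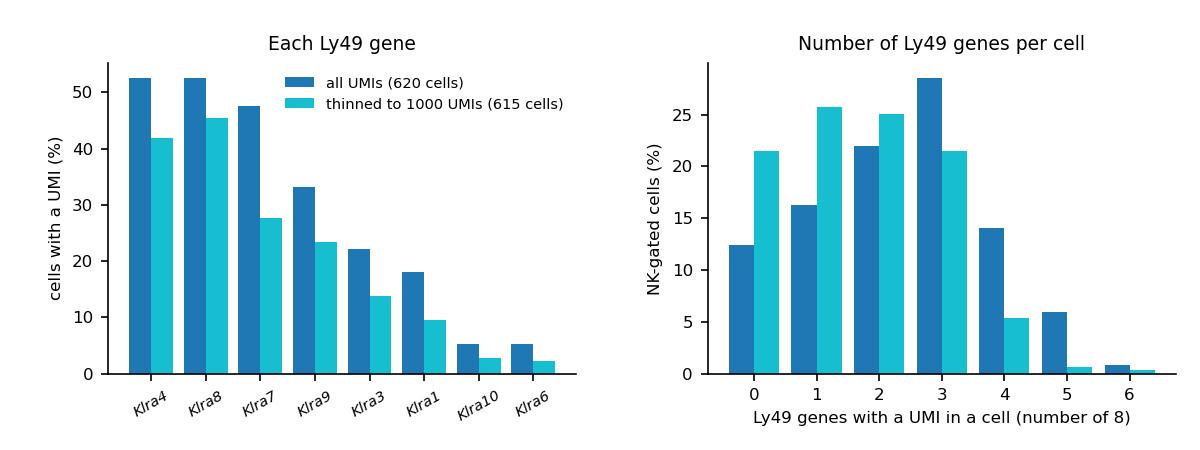
Left, share of BTYNB NK-gated cells (%) with a UMI of each of 8 Ly49 genes; right, share of cells (%) by the number of these genes with a UMI. Dark bars use all UMIs of 620 cells and light bars 615 cells thinned to 1000 UMIs; Klra4 and Klra8 are each seen in 52.6% of cells, and 3 genes per cell is the commonest number before thinning.

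Most other receptors were higher in NK-gated cells too. Klrk1 (NKG2D), an activating receptor for stress ligands, had 711 CPM against 50.9 CPM in CD8 T-gated cells, a log2 ratio of 3.78 (3.54 to 4.08). Klrd1 (CD94), the partner chain of the NKG2 receptors, had 986 against 334 CPM (1.56). Its inhibitory partner gene Klrc1 (NKG2A) had 137 against 30.2 CPM (2.15), and the maturation-linked inhibitory receptor Klrg1 had 88.7 against 2.07 CPM (4.87). Klrb1a, of the NKR-P1 family, had 247 UMIs in NK-gated and 0 in CD8 T-gated cells, at least 96.9-fold higher when the latter are set at 3 counts. The adaptor genes Tyrobp and Fcer1g were seen in 555 and 589 of the 620 members, with ratios of 4.77 (4.499 to 5.12) and 4.21 (4.02 to 4.45). Hcst (DAP10) and Cd247 (CD3ζ), adaptors that T cells also use, had ratios of 0.01 and -0.60.

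Checkpoint receptors were mostly low. Pdcd1, the gene of PD-1, had 1 UMI in the 620 members against 46 UMIs in CD8 T-gated cells, a log2 ratio of -3.75 (-10.62 to -2.74). Havcr2 (TIM-3) had 2 UMIs against 63 (-3.78). Ctla4 was at 74.1 against 164 CPM (-1.14) and Lag3 at 6.82 CPM (-1.23), so these 4 genes were the members of the inhibitory list that were more than 2-fold lower. Tigit, which binds CD155, was higher in NK-gated cells (69.7 against 31.1 CPM, 1.14), while Cd96, which shares its ligand, had a log2 ratio of -0.07.

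Cytotoxic effector genes were led by Gzma. This granzyme gene had 1936 CPM (1877 to 1998) and was seen in 432 members (69.7%), against 30.2 CPM in CD8 T-gated cells, a log2 ratio of 5.96 (5.67 to 6.36). Gzmb, the granzyme that cleaves caspases, had 257 CPM and was seen in 168 members (27.1%), a ratio of 2.65 (2.36 to 3.00). Prf1, the pore-forming perforin, had 252 CPM and was seen in 264 members (42.6%), with a ratio of 2.48 (2.20 to 2.82). Serpinb9, an inhibitor that shields cells from their own granzyme B, was also higher (261 against 29.8 CPM, 3.09). In all, 8 of 17 measured granule genes were more than 2-fold higher and 0 lower, with Nkg7, a granule membrane protein, at 1.20. Gzmd had no UMI. Gzmc, a further granzyme gene, was seen in 18 members.

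Chemokines and cytokines gave a mixed picture. Xcl1, which attracts cross-presenting dendritic cells, had 678 against 116 CPM (2.53, 2.36 to 2.73). Ccl4 and Ccl3, inflammatory chemokines, had ratios of 1.56 and 1.06. A single CD8 T-gated cell held 183 of the 518 Ccl4 and 186 of the 356 Ccl3 UMIs of its gate, and without it the ratios were 2.18 and 2.11. Another cell held 105 of the 281 Xcl1 UMIs, and without that cell Xcl1 had a ratio of 3.19. Ccl5, which attracts T cells and NK cells, was at 3696 against 3466 CPM (0.09, 0.05 to 0.14). Ifng had 91.6 CPM and was seen in 143 members, with a ratio of 0.97 (0.64 to 1.33), just under 2-fold. Of 10 measured genes of this list, 4 were more than 2-fold higher and 2 lower, the latter being Tnf (-1.01) and Ltb (-1.09). Il22 had no UMI.

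Receptors for cytokines and for migration differed from those of CD8 T-gated cells in both directions. Il2rb, the receptor chain for interleukin-2 and interleukin-15, was seen in 606 members and had 1992 against 501 CPM (1.99). Il12rb2 (3.19) and Il18rap (1.84), which serve responses to interleukin-12 and interleukin-18, were higher as well. Il7r, the receptor chain that keeps naive T cells and ILCs alive, had 68.7 against 1145 CPM (-4.04, -4.31 to -3.81). Among migration genes, Ccr2, a receptor for inflammatory chemokines, had 850.3 against 55.1 CPM (3.92), and the integrin genes Itgam (3.46), Itga2 (3.56), Itgax (4.65) and Itga1 (2.37) were all higher. Over the 96 γδ T-gated cells, Ccr2 (546 CPM there, 0.64), Itga1 (0.65, -0.08 to 1.48) and Il18rap (0.52, -0.01 to 1.11) were under 2-fold. Itgax (4.21), Il12rb2 (3.04), Itga2 (2.74), Itgam (2.55) and Il2rb (1.83) were more than 2-fold higher than in these cells too. S1pr5, the NK egress receptor, was higher (3.13) and S1pr1 and Ccr7, which T cells use, were lower (-3.38 and -3.67). Genes of tissue residency were split. Of 13 measured genes of the list of residency genes linked to TGF-beta, 5 were more than 2-fold higher and 6 lower (median 0.20). Itgae and Cxcr6 were lower (-3.06 and -2.38), whereas Rgs1 (2.34), Rgs2 (1.72) and Cd9 (1.41) were higher, as were Itga1 and Xcl1.

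Transcription factors also differed in both directions. Irf8 (460.5 against 33.5 CPM, 3.74), Eomes (2.87, 2.65 to 3.13) and Tbx21 (110 against 25.7 CPM, 2.05) were higher in NK-gated cells. Bcl11b (-4.27), a T cell commitment factor, Lef1 (-1.96) and Tcf7 (-1.14) were lower, although Tcf7 was still seen in 378 members. Of the 25 measured factors, 6 were more than 2-fold higher and 3 lower. Zfp683 had 1 UMI. Of the 17 measured S phase genes, 9 were more than 2-fold higher, as were 5 of 19 G2 and M phase genes, and 0 of either list were lower. Of the 17 type I interferon response genes 5 were lower and 0 higher. Immediate early genes were alike in median (0.12), and Fos was seen after thinning in 79.8% of NK-gated, 78.5% of CD8 T-gated and 81.3% of tumour-gated cells.

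By rank, the 15 genes with the highest ratios outside the gate held Klra4, Klra8, Klra9, Klra7, Klra1, Klrb1a, Klrb1b, Klrb1f, Klri2, Styk1 and Gzma, all receptor-like or effector genes of NK cells. The others were Angpt1, Phactr3, Chl1 and Tmsb15a. Angpt1, a vascular growth factor gene, had 100 UMIs in 78 NK-gated cells and 0 in CD8 T-gated cells, at least 39.2-fold higher. The 15 lowest held the T cell genes Themis (-5.85) and Cd5 (-4.39) and the naive T cell genes Dapl1 (-4.96) and Igfbp4 (-4.73). They also held the myeloid granule genes Mpo, Prtn3, Elane and Ctsg. For each of these 4, 1 CD8 T-gated cell carried most UMIs, as in 222 of the 249 of Mpo.

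The next question was whether NK and ILC1 states could be separated. A cell was called conventional NK-marked with at least 1 UMI of a 12-gene set (Eomes, S1pr5, Klrg1, Itgam, Irf8, Cma1, Ikzf2 and 5 Ly49 genes) and none of a 12-gene ILC1 set (Itga1, Il7r, Cxcr6, Rora, Tnfsf10, Cd200r1, Tmem176a, Tmem176b, Ckb, Zfp683, Icos and Ikzf4), ILC1-marked with the reverse and double-marked with both. In BTYNB, 318 members were conventional NK-marked (51.3%, 47.3 to 55.3%), 288 double-marked (46.5%), 11 ILC1-marked (1.77%, 0.889 to 3.15%) and 3 unmarked. Depth moved these shares. Thinning gave 426 conventional NK-marked (69.3%), 129 double-marked (21.0%), 32 ILC1-marked (5.203%) and 28 unmarked cells of 615. Among the 77 BTYNB members at the depth floor, 57 were double-marked and none ILC1-marked. Combination held 1 conventional NK-marked, 14 double-marked and 1 ILC1-marked cell.

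ILC1 transcripts therefore mostly lay in cells that also carried conventional NK transcripts. Itga1 (CD49a), the usual surface marker of ILC1, was seen in 135 members, and 72.6% of them had an Eomes UMI against 67.2% of the others. Thinning turned this to 34.5% against 38.1%, so no difference in Eomes is read from it. Klra8 was seen in 54.8% of the Itga1-bearing members and in 52.0% of the others (48.3% against 45.1% thinned). Of the 49 Il7r-bearing members, 34.7% had an Eomes UMI against 71.3% of the others, and thinning gave 9.38% against 39.3%. Rora, a factor of helper-like ILCs, was seen in 80 members, of which 31.3% had a Klra8 UMI against 55.7% of the others, and thinning narrowed this to 35.9% against 46.0%.

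The 11 ILC1-marked cells held 26601 UMIs, of which 68 were of the ILC1 set, and 4 of the 11 rested on 1 such UMI. Conventional NK-marked over ILC1-marked cells gave 1929 of 5981 genes (32.3%) more than 2-fold higher and 829 (13.9%) lower, with a median of 0.14. The 11 cells gave few UMIs per gene, and another scaling (median of ratios) moved the median to 0.37. The 9 genes of the NK-defining list that were measured and had not marked the cells gave 4 higher and 0 lower, with the 3 gate genes among the 9. Gzma had 2268 CPM in conventional NK-marked and 75.2 CPM (2 UMIs) in ILC1-marked cells, a log2 ratio of 4.90 (3.06 to 7.96). Gzmb (305 against 1 UMI) had a ratio of 3.16 (0.70 to 8.50) and Prf1 (283 against 2 UMIs) 2.07 (0.21 to 5.13). The receptors Klrb1b (159 against 1053 CPM, -2.72), which is inhibitory, and Cd226 (72.0 against 526 CPM, -2.85), which is activating, lay the other way. Il2rb (0.07), Nkg7 (0.13) and Ccl5 (-0.10) had intervals that included 0. The 10 genes of highest ratio (Tmed5, Nrgn, Gdi2, Ptbp1, Lasp1, Tmed2, Nsd1, Rnf138, Rel and Tuba1b) all had 0 UMIs in the 11 cells and are mostly housekeeping genes, and Klra5, of lowest ratio, lay in 1 cell. Most G2 and M phase genes also had 0 UMIs there, so no direction is read for that list.

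A larger contrast came from the 72 members without a UMI of any of the 8 Ly49 genes, chosen after values had been seen and without the MHC class II-rich members. They had about the depth of the 530 Ly49-bearing members (median 2803 against 2733.5 UMIs). Of 8132 genes, 404 (4.97%) were more than 2-fold higher in them and 622 (7.65%) lower. Of the 8 measured ILC1 genes, 7 were higher and 0 lower (median 1.81), whereas 2 of 7 conventional NK genes other than the Ly49 genes were lower and 0 higher (median -0.83). Rora had 339.8 against 36.8 CPM (3.17, 2.72 to 3.70) and was seen in 41.7% against 9.06% of cells. Il7r had 239.9 against 40.3 CPM (2.54, 2.05 to 3.10) and was seen in 26.4% against 4.91%. Cxcr6, a receptor of liver-resident lymphocytes, had 16 against 6 UMIs (3.83, 2.74 to 5.81). Ly49-free cells thus held more of these 3 ILC1 genes, though none of them in most cells.

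Receptors and effectors of the Ly49-free members differed as well. Klrb1b was seen in 72.2% against 28.5% of cells (599.7 against 157 CPM, 1.93), Cd226 in 51.4% against 18.3% (1.92), and Klrc1, whose product pairs with CD94 to bind Qa-1, in 50.0% against 21.5% (1.22). Eomes was lower (292 against 578 CPM, -0.98, -1.35 to -0.64) and was seen in 44.4% against 72.3% of cells. Gzmb (-1.48), Prf1 (-0.74) and Gzma (-0.69) were also lower, and S1pr5 had 0 against 52 UMIs, at least 2.57-fold lower. Itga1, which neither the gate nor this split had used, had an interval that included 0 (0.02, -0.59 to 0.57). T cell receptor genes gave no single direction (Trac -0.20, Trbc2 0.79, Trdc -0.74), and their part in this contrast was not tested. After thinning and splitting again, the ratios of Rora, Il7r and Eomes were 1.90, 1.75 and -0.62.

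The same Ly49-free cells held more transcripts of division genes. Of 16 measured G2 and M phase genes, 11 were more than 2-fold higher and 0 lower (median 1.41), and 5 of 16 S phase genes were higher. Top2a, which untangles DNA, had 672 against 213 CPM (1.65) and was seen in 27.8% against 17.2% of cells. Mki67 had a ratio of 1.47 that came to 0.33 after thinning. Single cells weighed on some genes of this small group, with all 21 Penk UMIs from 1 cell.

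Granzyme B split the members along maturation genes. This split was also chosen after values had been seen, and compared 165 Gzmb-bearing with 437 Gzmb-free members (median 2442 against 2856 UMIs). Of 8139 genes, 162 (1.99%) were more than 2-fold higher in Gzmb-bearing members and 272 (3.34%) lower. Of the 12 measured mature NK genes other than Gzmb, 7 were higher and 0 lower (median 1.18), and of 12 immature genes 0 were higher and 4 lower (median -0.56). The plot of both splits shows these groups.

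**Figure D3:**
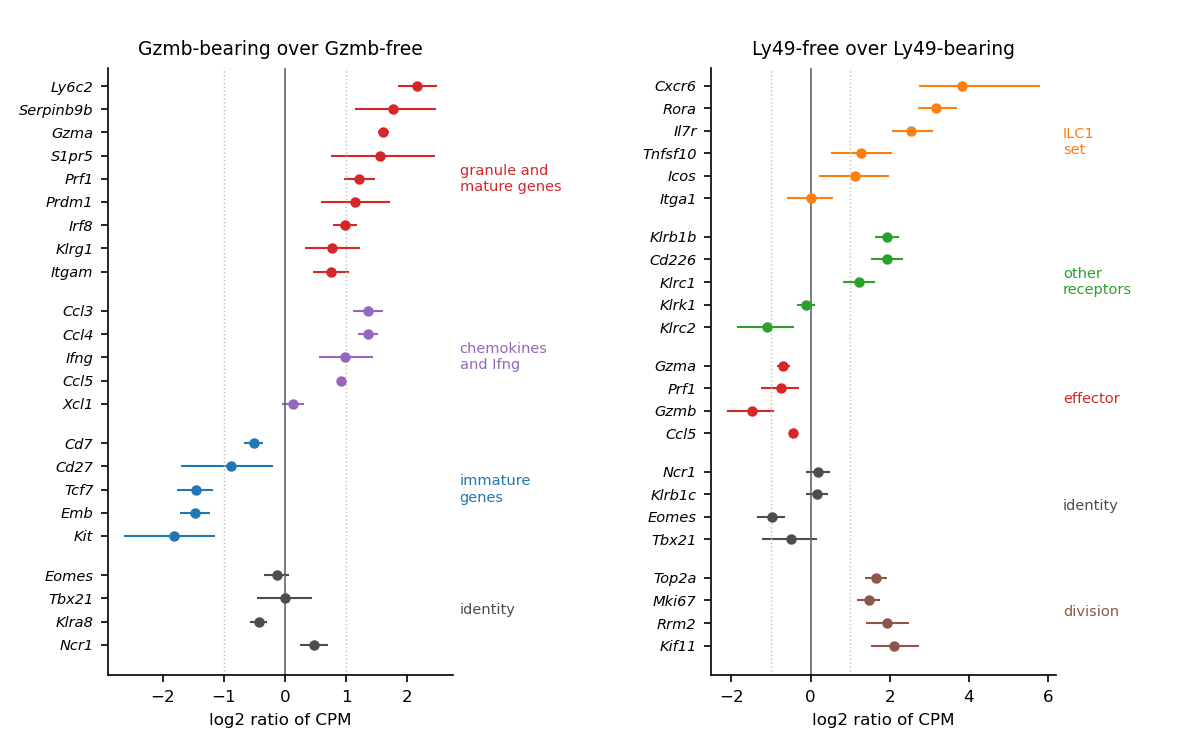
Log2 ratio of CPM between groups of BTYNB NK-gated cells, for genes by role: left, 165 Gzmb-bearing over 437 Gzmb-free cells; right, 72 Ly49-free over 530 Ly49-bearing cells. Bars are 95% counting intervals and dotted lines mark 2-fold; mature genes lie to the right and immature genes to the left in the first panel, while Cxcr6, Rora and Il7r lie to the right and Eomes to the left in the second.

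Gzma had 4007 CPM in Gzmb-bearing and 1312 CPM in Gzmb-free members (1.61, 1.52 to 1.70), and was seen in 91.5% against 61.8% of them. Prf1 had 450.2 against 193 CPM (1.22, 0.96 to 1.48). Ly6c2, a marker of late NK maturation, had 417 against 93.1 CPM (2.15), and Cx3cr1, a receptor of mature blood NK cells, had 20 against 7 UMIs (2.77, 1.70 to 4.49). S1pr5 (1.55), Prdm1 (1.14), Irf8 (0.98), Klrg1 (0.77) and Itgam (0.75) lay on the same side, the last 3 under 2-fold. On the other side, Kit, the stem cell factor receptor, had 35.4 against 127 CPM (-1.82, -2.64 to -1.15) and was seen in 7.88% against 25.2% of cells. Tcf7, a factor of early NK stages, had 218 against 600.2 CPM (-1.46, -1.76 to -1.17), and Emb (-1.47), Il7r (-1.19) and Cd27 (-0.89) were lower as well. Seen from the early-stage genes, Gzmb had a UMI in 14.3% of the 378 Tcf7-bearing members against 47.1% of the others, and in 10.4% of the 125 Kit-bearing members against 31.3%.

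The identity genes moved little in this split. Eomes (-0.14, -0.35 to 0.07) and Tbx21 (0.00, -0.46 to 0.44) had intervals that included 0, and Klra8 was slightly lower (-0.43). None of the 19 measured activating receptors and adaptors passed 2-fold. The chemokine genes Ccl3 (1.36), Ccl4 (1115 against 436 CPM, 1.35) and Ccl5 (0.92) were higher in Gzmb-bearing members, and Ifng was 0.99 (0.55 to 1.43), whereas Xcl1 was 0.13 (-0.06 to 0.31). Division genes of both phases gave 0 higher and 0 lower. Thinned cells, split again, gave 1.54 for Gzma, 1.38 for Prf1 and -1.56 for Tcf7.

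Chemokine transcripts were concentrated in a part of the members. Ccl4 was seen in 70.9% of the 203 Ccl3-bearing members and in 26.6% of the others. The 125 members with at least 5 UMIs of both genes together had more Gzmb than the 301 without any (643 against 138 CPM, 2.21, 1.92 to 2.53), and also more Xcl1 (1.43), Gzma (1.17) and Ifng (165 against 72.9 CPM, 1.16). Nfkbid (1.31), an NF-κB regulator, and Egr3 (28 against 10 UMIs, 2.73), a target of receptor signalling, were higher in the same cells. Fos differed less (0.29), and Klra8 had an interval that included 0 (-0.11, -0.27 to 0.04).

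Variation across all members was led by effector and MHC class II genes. In 615 cells thinned to 1000 UMIs, 3380 genes were seen in at least 5% of cells, their median variance over mean was 1.07 (1 for a Poisson draw), and 47 (1.39%) exceeded 2. Ccl5 had 7.25, with a median of 3 and a highest value of 50 UMIs per cell. Gzma had 4.87 (median 1, highest 20), Ly6c2 4.68, Xcl1 4.08, Ccl4 3.797, Gzmb 3.34 and Klra8 3.21. H2-Ab1 and Cd74 stood at 7.997 and 7.86 and came to 0.991 and 1.15 without the 18 MHC class II-rich members, so those cells carried their variation.

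Division genes were seen more often in cells of more UMIs. At least 3 UMIs of the 19 G2 and M phase genes were seen in 51 of the 543 BTYNB members under the depth floor (9.39%), in 49 of the 77 at or above it (63.6%) and in 12 of the 16 combination members (75%). Thinning to 1000 UMIs left 3.16%, 37.7% and 31.3%. The depth floor therefore kept a larger share of dividing members, also at equal numbers of UMIs per cell. The plot of UMIs against division transcripts shows this for each cell.

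**Figure D4:**
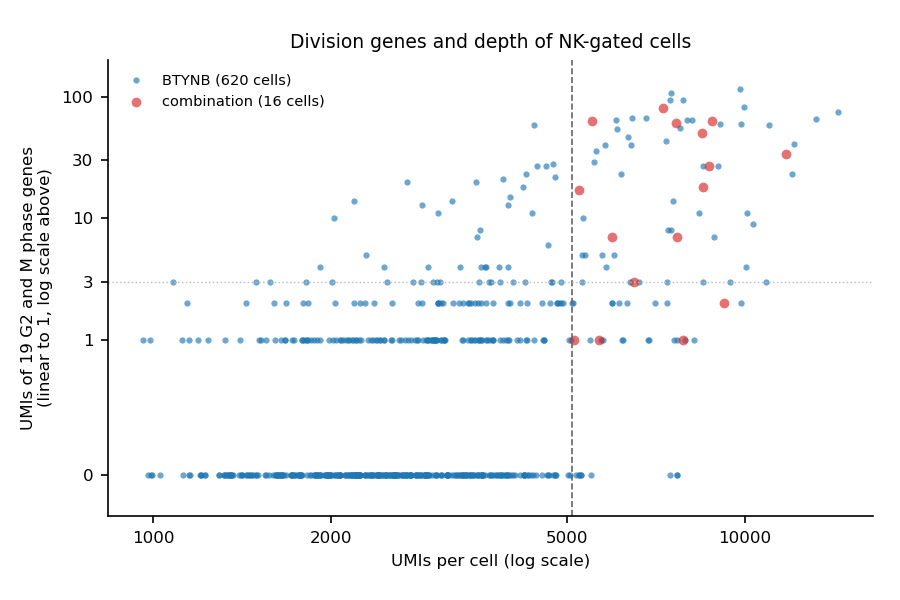
UMIs of 19 G2 and M phase genes (linear to 1, log scale above) against total UMIs (log scale) of each NK-gated cell, 620 from BTYNB and 16 from combination. The dashed line is the depth floor and the dotted line 3 division UMIs; 49 of the 77 BTYNB cells and 12 of the 16 combination cells above the floor reach 3, against 51 of 543 BTYNB cells below it.

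Dividing members (94 with at least 3 of these UMIs, median 4714.5 UMIs) were set against 340 members without any (2411 UMIs). Of 7329 genes, 438 (5.98%) were more than 2-fold higher and 587 (8.01%) lower. Of 16 measured S phase genes, which had chosen no cell, 14 were higher and 0 lower (median 2.65), with Rrm2, a subunit of ribonucleotide reductase, at 4.62 and the replication factor gene Mcm5 at 2.97. Of 13 mature NK genes, 6 were lower and 0 higher. Ccl5 had 1271 against 5250 CPM (-2.05, -2.17 to -1.93). Gzma (1958 against 2135 CPM, -0.12) and Eomes (-0.40) differed little in size, and Klrg1 was higher (0.58, 0.10 to 1.08). The thinned ratios were smaller, -0.63 for Ccl5, -0.02 for Gzma and -0.04 for Klra8, which had -0.85 on all UMIs.

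The last comparison was that of the combination with the BTYNB library, the step of adding PD-1 blockade, in the 16 and 77 members at or above the depth floor. It compares 2 pooled libraries and rests on few cells. Of 5272 genes with at least 20 UMIs over both, 353 (6.7%) were more than 2-fold higher in combination and 543 (10.3%) lower, with a median log2 ratio of -0.06. Summed over their lists, inhibitory receptors (2431 CPM in BTYNB, 1567 CPM in combination, -0.63, -0.86 to -0.41), activating receptors and adaptors, with the gate genes Ncr1 and Klrb1c among them (5866 against 3784 CPM, -0.63, -0.78 to -0.49), and cytokines and chemokines (3037 against 1675 CPM, -0.86, -1.08 to -0.65) were lower in combination. Without the MHC class II-rich members these 3 ratios were -0.38 (-0.64 to -0.14), -0.38 (-0.55 to -0.22) and -0.07 (-0.33 to 0.18), so no lower level of cytokines and chemokines is read. The sums of trafficking genes (-0.02, -0.14 to 0.10) and transcription factors (0.01, -0.12 to 0.14) had intervals that included 0. Ptprc (-0.51, -0.77 to -0.27) and the sum of the NK-defining list (-0.40, -0.53 to -0.27) were lower in combination. They came to -0.22 and -0.12 without the MHC class II-rich members. Immediate early genes were higher in sum (9451 CPM in BTYNB, 14926 CPM in combination, 0.66, 0.58 to 0.74), with a ratio of 0.58 when those members were left out. These sums also differed with depth within BTYNB. Its 543 members under the floor had 3287 CPM of inhibitory receptors and 8670 CPM of activating receptors and adaptors. They had 6636 CPM of cytokines and chemokines and 16039 CPM of immediate early genes. The dendritic cell markers were at 3461 CPM in the 77 BTYNB and 5167 CPM in the 16 combination members, and the tumour cell markers at 196 and 700.1 CPM. The part of tumour cell transcripts in these list sums was not tested. The plot of the library contrast gives each gene with and without the MHC class II-rich members, 5 in combination and 12 in BTYNB.

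**Figure D5:**
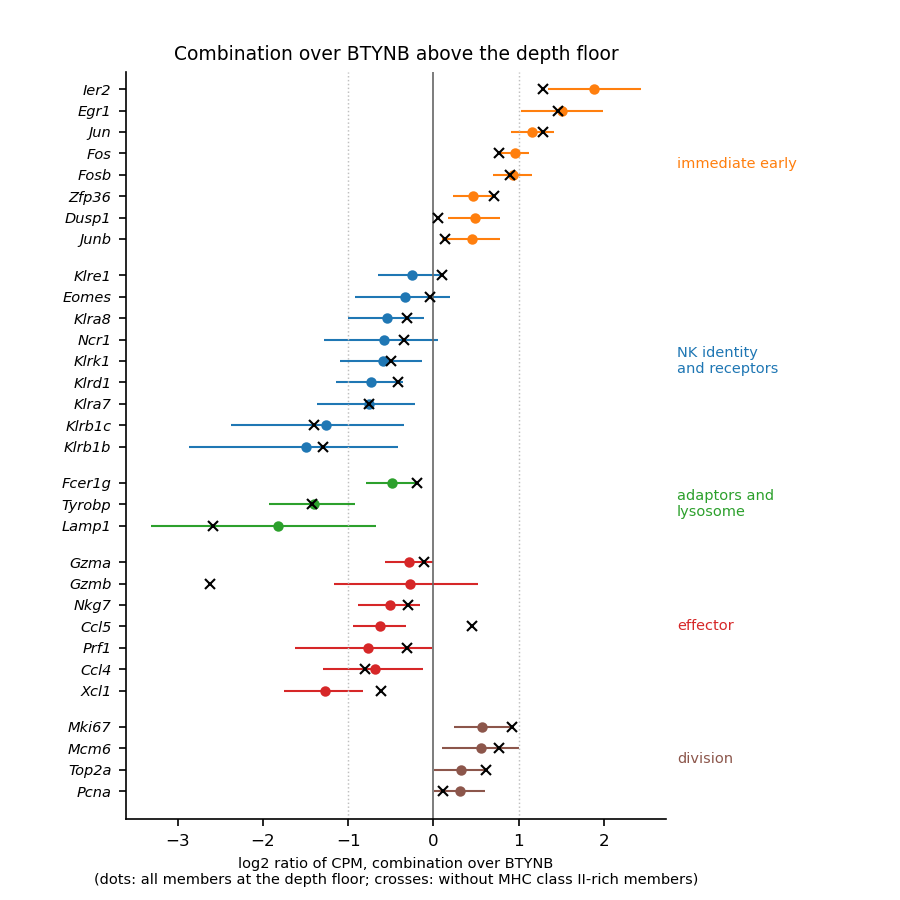
Log2 ratio of CPM in combination over BTYNB for NK-gated cells at or above the depth floor (16 and 77 cells), by gene group. Dots with bars are ratios with 95% counting intervals and crosses are the ratios without MHC class II-rich members; Jun, Fos, Egr1 and Ier2 lie to the right of 0 and Tyrobp and Lamp1 to the left with both, while Ccl5 and Gzmb move by more than 2-fold.

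Eomes, which had chosen no cell, had 275 CPM in combination and 347 in BTYNB (-0.34, -0.91 to 0.20), and 12 of 16 and 61 of 77 cells had a UMI. The gate genes chose the cells in both libraries, so their ratios are a description: Klre1 -0.25, Ncr1 -0.58 and Klrb1c (NK1.1) -1.26. Klrb1c was the 1 gene past 2-fold of the 12 on the NK-defining list.

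Among adaptors of activating receptors, Tyrobp and Cd247 were more than 2-fold lower. Tyrobp had 308 against 818 CPM (-1.40, -1.93 to -0.92), and its ratio was -1.43 without the MHC class II-rich members. Cd247 had 0 UMIs in the 16 combination cells against 45 UMIs in 30 of 77 BTYNB cells, at least 3.13-fold lower. Fcer1g (-0.49, and -0.19 without MHC class II-rich members), Hcst (-0.66, -1.63 to 0.17), Sh2d1a (0.32) and Sh2d1b1 (0.12) were under 2-fold. Cd160 had 1 against 52 UMIs (-3.29, -8.77 to -0.90) and Lamp1, the lysosomal protein shown on the surface during degranulation, 6 against 103 (-1.82, -3.32 to -0.67). In all, 6 of 19 activating receptors and adaptors and 3 of 12 measured inhibitory receptors were more than 2-fold lower, and 0 of either were higher. The gate gene Klrb1c was among the 6.

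Of 14 measured granule genes, 0 were more than 2-fold higher in combination and 1 was lower (median -0.28). The intervals of 5 lay below 0 and that of 1 above it. The latter was Gzmc (0.82, 0.01 to 1.59), and all 20 of its combination UMIs lay in 1 cell. The sum of this list had a ratio of -0.36 (-0.50 to -0.22). Without the MHC class II-rich members it was -0.14 (-0.30 to 0.02), and some effector genes turned on a few cells. Gzma had 1042 against 1266 CPM (-0.28, -0.57 to -0.01), and its UMIs per combination cell ranged from 0 to 28, with none in 5 of the 16. Gzmb had 15 against 87 UMIs (-0.27, -1.17 to 0.53), but 13 of the 15 lay in 1 MHC class II-rich cell, and the ratio without such members was -2.62. Ccl5 went from -0.63 to 0.45 and Ccl3 from -1.22 to 0.33 when these members were left out. Xcl1 was -1.27 (-1.75 to -0.83) with them and -0.62 without. Prf1 was -0.77 (-1.62 to -0.02).

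Immediate early genes switch on within minutes of a stimulus, and some of them were higher in combination. Jun had 1642 against 733 CPM (1.16, 0.91 to 1.41) and was seen in 15 of 16 and 73 of 77 cells. Fos had 3492 against 1799 CPM (0.96, 0.79 to 1.12), Egr1 492 against 172 CPM (1.51, 1.03 to 1.995) and Ier2 433 against 116 CPM (1.89, 1.35 to 2.44). Without the MHC class II-rich members the ratios were 1.28, 0.77, 1.46 and 1.29. Of the 17 measured genes of the list, 3 were more than 2-fold higher and 0 lower. Dusp1 (0.48), Jund (0.36), Nr4a1 (0.48) and Junb (0.45) came to 0.05, 0.03, 0.03 and 0.14 without those members, and Dusp2 (-0.72) and Ier5 (-0.62) lay the other way.

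By rank, the 10 highest genes held dendritic and epithelial genes. Xcr1, a receptor of cross-presenting dendritic cells, had 31 UMIs in 3 combination cells, all rich in MHC class II transcripts, and 1 in BTYNB (6.57), and its ratio turned to -1.62 without such members. Fxyd3, Sparc, Gstm2, Lsr and Tmem98 had ratios from 2.92 to 3.37. Id3, a brake on E-protein factors in lymphocytes, had 19 UMIs in 8 of 16 combination cells against 3 UMIs in 3 of 77 BTYNB cells (4.68, 3.16 to 7.33), and 3.51 without the MHC class II-rich members. The 10 lowest genes all had 0 UMIs in combination and included Cd247, Ifitm1 and the dendritic cell genes Fscn1, Mgl2 and Cd209a. Ifitm1, an interferon-induced membrane protein gene, was 5.77-fold lower with 0 set at 3 counts. Without the MHC class II-rich members its log2 ratio went from -7.18 to -1.62. Mgl2 likewise went from -5.82 to -1.62 and Fscn1 from -6.57 to 0, while Cd247 was at -6.31 and -6.35.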

How the data were processed

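The authors captured cells with BD Rhapsody HT, processed reads with the BD Rhapsody pipeline (genome build GRCm39 per the labels) and deposited 1 matrix of raw UMI counts per library. The deposited counts were whole numbers and were used as such. Genes not listed in one of the matrices were set to 0 there, which gave 28942 genes. No coordinates or sequences are given, since the reference used here has another build.

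Members of a gate were summed and expressed as CPM with exact Poisson intervals, and shares of cells with exact (Clopper-Pearson) binomial intervals, at the 95% level. Log2 ratios used a pseudocount of 1 CPM, genes of at least 20 UMIs over both groups and the binomial interval of the UMIs. A fold of 2 was taken as a call. In the library contrast, the ratios of named genes without MHC class II-rich members had no such minimum. A count of 0 was set at 3 counts for bounds, and the other count was taken as exact. Such a bound can therefore exceed the limit of the 95% interval. Cells were thinned to 1000 UMIs by seeded draws, and splits were made again on the thinned cells (dividing: 1 G2 or M phase UMI; other limits as stated). With 1 library per group no test was made. Named genes are those of 21 lists, the 15 highest and lowest ratios against CD8 T-gated cells and the 10 highest and lowest of the other contrasts, among those whose interval left out 0; the splits by Ly49, Gzmb, chemokine, division and MHC class II genes were chosen after values were seen, and so were the genes named in them outside the lists. The members and lists were chosen with earlier results of these data known. Control and anti-PD-1 members were not analysed by gene. Calculations used Python 3.11.15, NumPy 2.4.6, SciPy 1.17.1, pandas 2.3.3 and Matplotlib 3.10.9, and the ratio step was tested on simulated data. Stricter gates, depth floors, count minimums, pseudocounts and scalings were tried as alternatives.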

Additional observations from a re-analysis of the deposited data

How the results depend on the processing

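No paired analysis was possible because each group holds 1 library. With no UMI allowed of the Cd3, Cd79, Lyz2 and keratin genes that the gate limits, combination kept 6 members and BTYNB 43 at the depth floor. Leaving out the 5% of members with most UMIs left 46 BTYNB and 15 combination members at that floor. The share ratio of 3.91 that this gave was lower by construction. A floor of 7000 UMIs left 40 and 10 members. Against CD8 T-gated cells, a minimum of 50 UMIs gave 399 genes lower, no minimum 1330 higher and 1497 lower, and a pseudocount of 10 CPM 368 and 246. Combination over BTYNB gave 188 higher and 311 lower without the 5% highest-UMI members, 70 and 137 at 50 UMIs, 2492 and 4447 with no minimum and 233 higher at a pseudocount of 10 CPM. The conventional NK and ILC1 contrast gave 753 and 331 at 50 UMIs, 8947 and 2091 with no minimum, and 713 and 330 on thinned cells. Fen1 turned to -0.0076 on thinned cells and Mcm7 to -0.59 without cells with a division UMI. In the library contrast, Clu turned to -1.27 with 3 gate UMIs, -0.83 at 20% mitochondrial UMIs and -0.79 without MHC class II-rich members, Ifng to 0.25 and Xcl1 to 0.19 under strict lineage limits, and Ccl3 to 0.33 without MHC class II-rich members. Nrgn (-0.41) and Rel (-0.73) turned in thinned states. The median of ratios moved the share of higher calls in the state contrast from 69.9% to 78.2%. Fewer cells or genes account for smaller counts by construction; the cause of other changes was not tested. The alternatives without MHC class II-rich, division-marked, tumour marker-rich or single chemokine-rich CD8 T-gated cells were chosen after seeing the data.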
